A study of Mus musculus with 48 samples.

Results

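The genes described here encode the presynaptic terminal and its synaptic vesicles. They are 45 named genes, chosen by symbol from a table of 16014 genes, and all 45 were present and passed the filter on low values that left 15975 genes for testing. The table holds bulk RNA-seq of 48 mouse brain libraries in 12 groups of 4. Wild-type and 5xFAD mice of the C57BL/6 strain were fed control chow or chow with PLX5622 at 1200 ppm starting at an age of 1.5 months and ending at 7 months, and 3 regions were dissected: cortex, hippocampus and thalamus. The 4 groups in each region are called Wild-type, PLX5622 (wild-type mice on the drug), 5xFAD and 5xFAD + PLX5622. 5xFAD mice are a model of amyloid pathology, with human transgenes that carry familial Alzheimer's disease mutations under the neuronal Thy1 promoter, so that transgene expression follows that promoter. PLX5622 is an orally given inhibitor of CSF1R, the receptor on which microglia depend for survival, and the drug was used to keep microglia depleted while plaques formed. The sample labels describe the third region as thalamus together with striatum, and it is called thalamus below. Nothing in the labels ties the libraries of different regions to single animals. The p-values rest on the spread between libraries within groups, estimated from all 12 groups together unless another fit is named.

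A synaptic vesicle is filled with transmitter by a transporter in its membrane, docks at the active zone, is primed, fuses with the plasma membrane when calcium enters, and is taken back by endocytosis. Fusion is driven by a SNARE complex of a vesicle protein (Vamp1 or Vamp2) with syntaxin and SNAP-25, synaptotagmins sense the calcium, and large scaffolds such as Bassoon and Piccolo hold the release sites in place. Many steps are shared by all neurons, but several of the proteins come in paralogs that differ between cell types, for example Slc17a7 (VGLUT1), the vesicular glutamate transporter of most cortical and hippocampal excitatory neurons, whereas thalamic relay neurons mainly use Slc17a6 (VGLUT2).

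All 45 genes were expressed in every group. Levels are RPKM, reads per gene length and per library depth, so that genes can be compared per length. Over the 48 libraries Snap25, the plasma membrane SNARE, had the highest mean (842 RPKM, from 409 to 1331), followed by Vamp2, the main vesicle SNARE of the forebrain (382), Syp, the vesicle marker synaptophysin (364), Syt1, the calcium sensor of fast release (317), and Dnm1, the dynamin that pinches off endocytic vesicles (276). The lowest means belonged to Unc13b (9.80), a priming factor of the Munc13 family, Sypl (9.73), a synaptophysin relative, Doc2a (8.85), a calcium sensor, Syn3 (6.10), the third synapsin, and Cplx3 (2.93), a complexin. Cplx3 ran from 0.303 to 7.18 RPKM and rested on few reads, 7 in the lowest library and 88 in the median library. The remaining 35 genes had means between 10.7 (Rab3b) and 265 RPKM (Slc17a7). Nsf, the ATPase that takes spent SNARE complexes apart, varied little (186 to 250 RPKM in all 48 libraries), while Slc17a7 spanned 32.4 to 467.

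**Figure D1:**
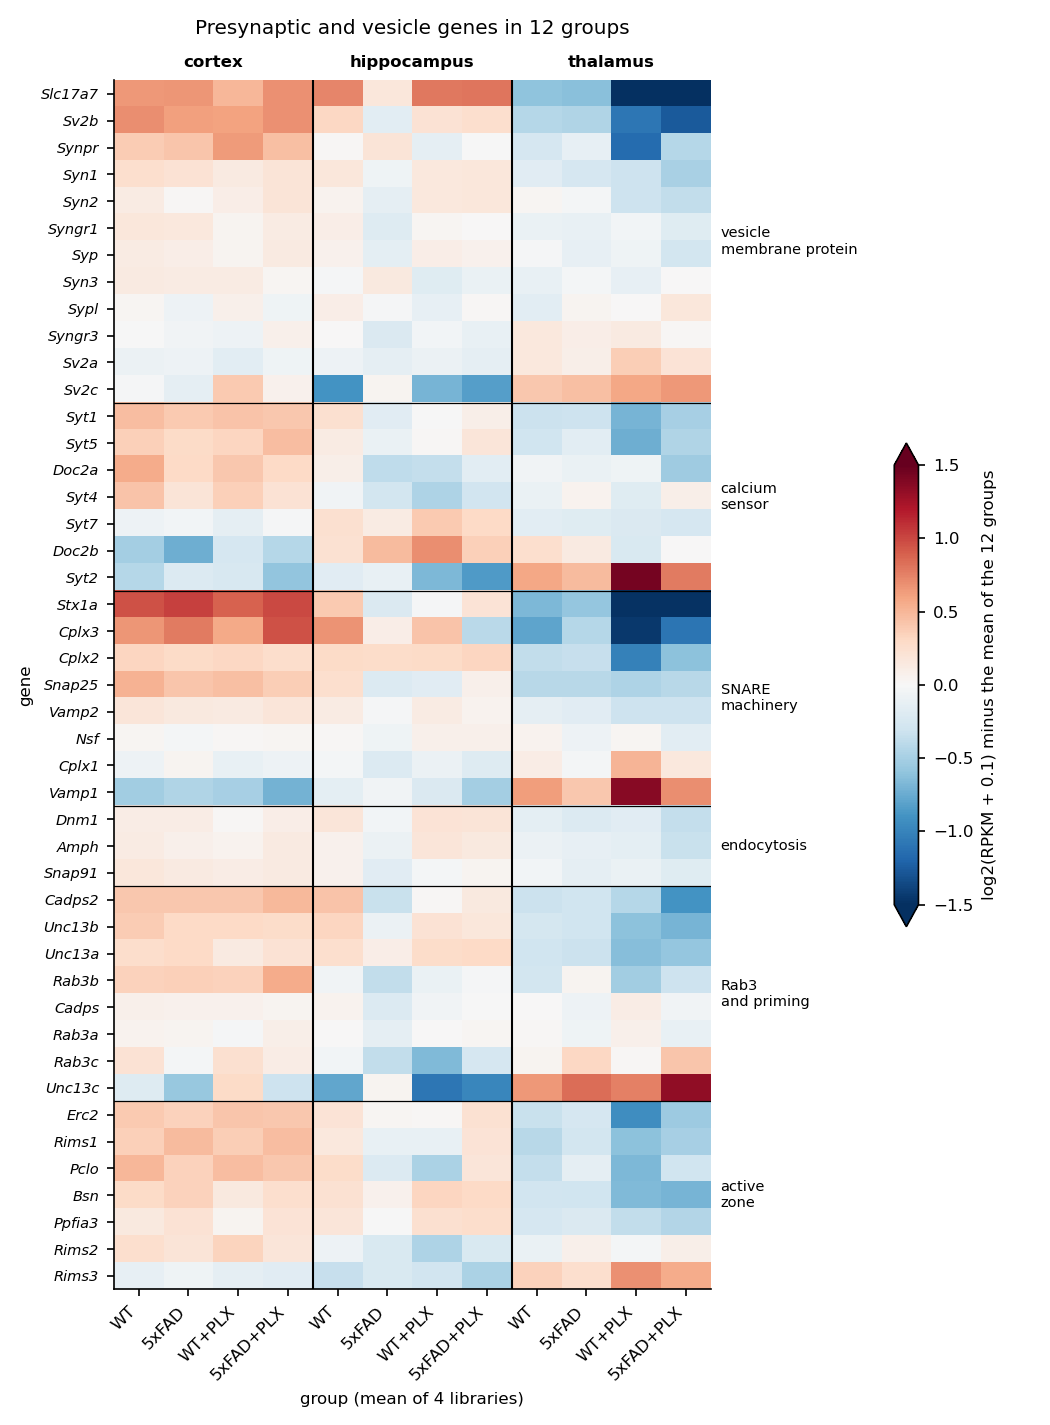
Heat map of the 45 genes (rows, ordered by role) in the 12 groups (columns), as the difference of each group's mean log2(RPKM + 0.1), over 4 libraries, from the mean of the 12 groups. The thalamic columns carry the strongest colours, blue for genes such as Slc17a7, Sv2b and Stx1a and red for Vamp1, Syt2 and Unc13c, whereas the 4 cortical columns resemble each other.

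Several libraries stood apart in ways that bear on these genes. Microglial marker sums (10 genes) ran from 134 to 188 RPKM in Wild-type cortex and thalamus and from 10.2 to 30.7 in PLX5622 libraries of those regions. In hippocampus they ran from 139 to 153 in Wild-type, 354 to 434 in 5xFAD, 12.6 to 18.9 in PLX5622 and 42.7 to 157 in 5xFAD + PLX5622. The summed RPKM of 8 striatal neuron markers was 1138 in 5xFAD hippocampus library 3 and 593 in library 4, against 69.2 and 61.3 in libraries 1 and 2 and 62.5 to 355 in Wild-type hippocampus. In thalamus the same sum ran from 114 to 641 in Wild-type, 84.5 to 688 in 5xFAD, 72.8 to 119 in PLX5622 and 213 to 606 in 5xFAD + PLX5622, the sum of 8 cortical projection neuron markers ran from 55.9 to 106, 58.3 to 112, 37.5 to 75.7 and 56.5 to 64.1, and the sum of 8 thalamic neuron markers ran from 112 to 428, 131 to 401, 285 to 445 and 242 to 386. All 8 genes of each neuronal list were in the table and none was at 0 throughout a group, and the thalamic list reached 33.8 to 53.8 in Wild-type cortex. The thalamic list summed to 151, 183, 78.9 and 69.2 RPKM in 5xFAD hippocampus and 28.5 to 111 in Wild-type hippocampus. It ran from 39.4 to 196 in PLX5622 and from 35.9 to 134 in 5xFAD + PLX5622 hippocampus. The liver gene Alb was at 634 RPKM in 5xFAD + PLX5622 hippocampus library 3 and 112 in library 4, and at 0 to 39.4 in the other 46 libraries. Choroid plexus markers (8 genes) summed to 4353 RPKM in Wild-type hippocampus library 3, with 97.4 to 209 in the rest of that group. They summed to 3984 in PLX5622 hippocampus library 2, 1457 in 5xFAD + PLX5622 hippocampus library 3 and 2323 in PLX5622 thalamus library 1. The part of choroid plexus RNA was not tested. In bulk tissue, fewer cells of a type and less RNA per cell cannot be told apart.

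The region comparison in Wild-type mice asks how the release machinery differs between brain areas. Wild-type thalamus had lower levels of many presynaptic genes than cortex, and a few paralogs were higher. Of the 45 genes, 17 were lower and 2 higher in thalamus than in cortex (limma, adjusted p below 0.05, here and below the threshold), which is 42.2% of the genes, while 9.28% of all genes tested were lower and 8.97% higher. Against hippocampus 13 were lower and 3 higher (35.6%), with 5.55% of all genes lower and 5.75% higher. The median log2 difference of the 45 was -0.32 from cortex and -0.22 from hippocampus. Leaving out Wild-type thalamus library 3 brought the calls against cortex from 19 to 12. Cortex and hippocampus differed in 1 gene: Syt7, a slow, high-affinity calcium sensor, was at 73.1, 64.2, 72.3 and 76.3 RPKM in the hippocampal libraries and 59.4, 56.1, 58.0 and 56.1 in cortex (log2 difference 0.31, SE 0.08, limma adjusted p = 0.0201), and 2.85% of all genes were higher in hippocampus. That call was lost without cortical library 2 or 4 or hippocampal library 1 or 4.

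Among vesicle membrane proteins, 3 of 12 were lower in thalamus than in cortex, namely Slc17a7, Sv2b and the synapsin Syn1. Slc17a7 was at 222, 164, 87.5 and 139 RPKM in the 4 thalamic libraries, at 379, 311, 332 and 364 in cortex and at 316, 396, 381 and 383 in hippocampus. The thalamic values lay below every value of the other regions (log2 difference -1.25 from cortex, SE 0.25, limma adjusted p = 8.77e-04, and -1.34 from hippocampus, adjusted p = 3.64e-04). Sv2b, a vesicle glycoprotein of excitatory terminals, was at 86.8, 60.0, 39.8 and 59.9 RPKM in thalamus against 137, 121, 125 and 134 in cortex (log2 difference -1.12, SE 0.20, limma adjusted p = 2.08e-04), and against the hippocampal 83.6, 111, 98.5 and 105 the difference was -0.74 with 1 value overlapping (adjusted p = 0.0182). Its relative Sv2c, which is abundant in the basal ganglia, went the other way against hippocampus, with 23.4, 13.7, 17.2 and 19.3 RPKM in thalamus and 8.67, 12.5, 5.41 and 4.60 in hippocampus (log2 difference 1.31, SE 0.33, limma adjusted p = 0.0119).

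Of the 8 genes of the SNARE machinery, 4 were lower in thalamus than in cortex (Stx1a, Snap25, Cplx2 and Vamp2) and Vamp1 was higher. Stx1a, the syntaxin of the plasma membrane, had the largest decrease of the 45, with 38.6, 24.8, 18.8 and 21.7 RPKM in thalamus and 92.1, 68.5, 74.2 and 76.5 in cortex (log2 difference -1.62, SE 0.34, limma adjusted p = 0.00191). Its hippocampal values, 33.8, 91.7, 56.9 and 43.7, spread over both ranges. Snap25 was at 701, 699, 612 and 443 RPKM in thalamus, below all 4 cortical libraries at 1263, 1130, 1068 and 1168 (log2 difference -0.94, SE 0.19, limma adjusted p = 0.00105). Hippocampus was at 778, 1331, 892 and 894 (-0.66, limma adjusted p = 0.0278). Vamp1, the vesicle SNARE of the spinal cord, brainstem and other fast-firing systems, was at 47.5, 79.3, 140 and 104 RPKM in thalamus and 43.3, 37.0, 43.1 and 33.1 in cortex, without overlap (log2 difference 1.14, SE 0.22, limma adjusted p = 5.72e-04). Against the hippocampal values of 50.0, 63.6, 44.3 and 45.6 the difference was 0.77 (SE 0.22, limma adjusted p = 0.0265), and thalamic library 1 lay within the hippocampal range.

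Calcium sensors split in the same way. Syt1 and Syt5 were lower in thalamus than in cortex (2 of 7), while Syt2, the fast sensor that takes the place of Syt1 in hindbrain and some inhibitory neurons, was higher, with 16.2, 26.8, 46 and 33.8 RPKM against 17.7, 14.1, 12.4 and 13.7 (log2 difference 1.00, SE 0.29, limma adjusted p = 0.0344). Thalamic library 1 lay within the cortical range of Syt2. That library also held the lowest Vamp1 and thalamic marker sum (112) and the highest Slc17a7, striatal (641) and cortical neuron marker sums (106) of its group. The sum of 10 oligodendrocyte markers was 1096 to 1885 RPKM in Wild-type thalamus and 712 to 863 in Wild-type cortex, without overlap. The parts of this mixture and of oligodendrocyte RNA in the regional differences were not tested. The Slc17a7, Sv2b, Stx1a, Snap25 and Vamp1 differences from cortex passed the threshold with any 1 Wild-type library left out, whereas the Syt2 call was lost without cortical library 2, 3 or 4 or thalamic library 3 or 4.

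The priming and active zone genes were mainly lower in thalamus. Of 8 Rab3 and priming genes 2 were lower than in cortex (Unc13a and Unc13b), and of 7 active zone scaffolds 5 were lower (Rims1, Bsn, Pclo, Erc2 and Ppfia3), from -0.40 for Ppfia3, a liprin, to -0.85 for Pclo (Piccolo) on the log2 scale. Unc13c, the Munc13 paralog best known from cerebellar granule cells, was at 23.4, 23.1, 25.1 and 13.0 RPKM in thalamus and at 9.49, 6.38, 5.42 and 9.69 in hippocampus, again without overlap (log2 difference 1.44, SE 0.31, limma adjusted p = 0.00247). Cadps2, a priming factor of dense-core vesicles, was lower in thalamus (18.3, 15.8, 9.91 and 14.4 RPKM) than in hippocampus (24.4, 35.0, 16.8 and 24), with overlapping values (log2 difference -0.76, SE 0.23, limma adjusted p = 0.0436). Of the 3 endocytosis genes, Amph (amphiphysin) was lower than in cortex (-0.21) and Dnm1 lower than in hippocampus (-0.33). Against hippocampus the Slc17a7 and Unc13c calls held with any 1 library left out. Others did not: Vamp1 was lost without hippocampal library 1, 3 or 4 or thalamic library 3 or 4, Sv2b without hippocampal library 2 or thalamic library 3, Snap25 without those or thalamic library 4, Sv2c without hippocampal library 4, and Cadps2 without hippocampal library 1, 2 or 4 or thalamic library 2, 3 or 4.

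**Figure D2:**
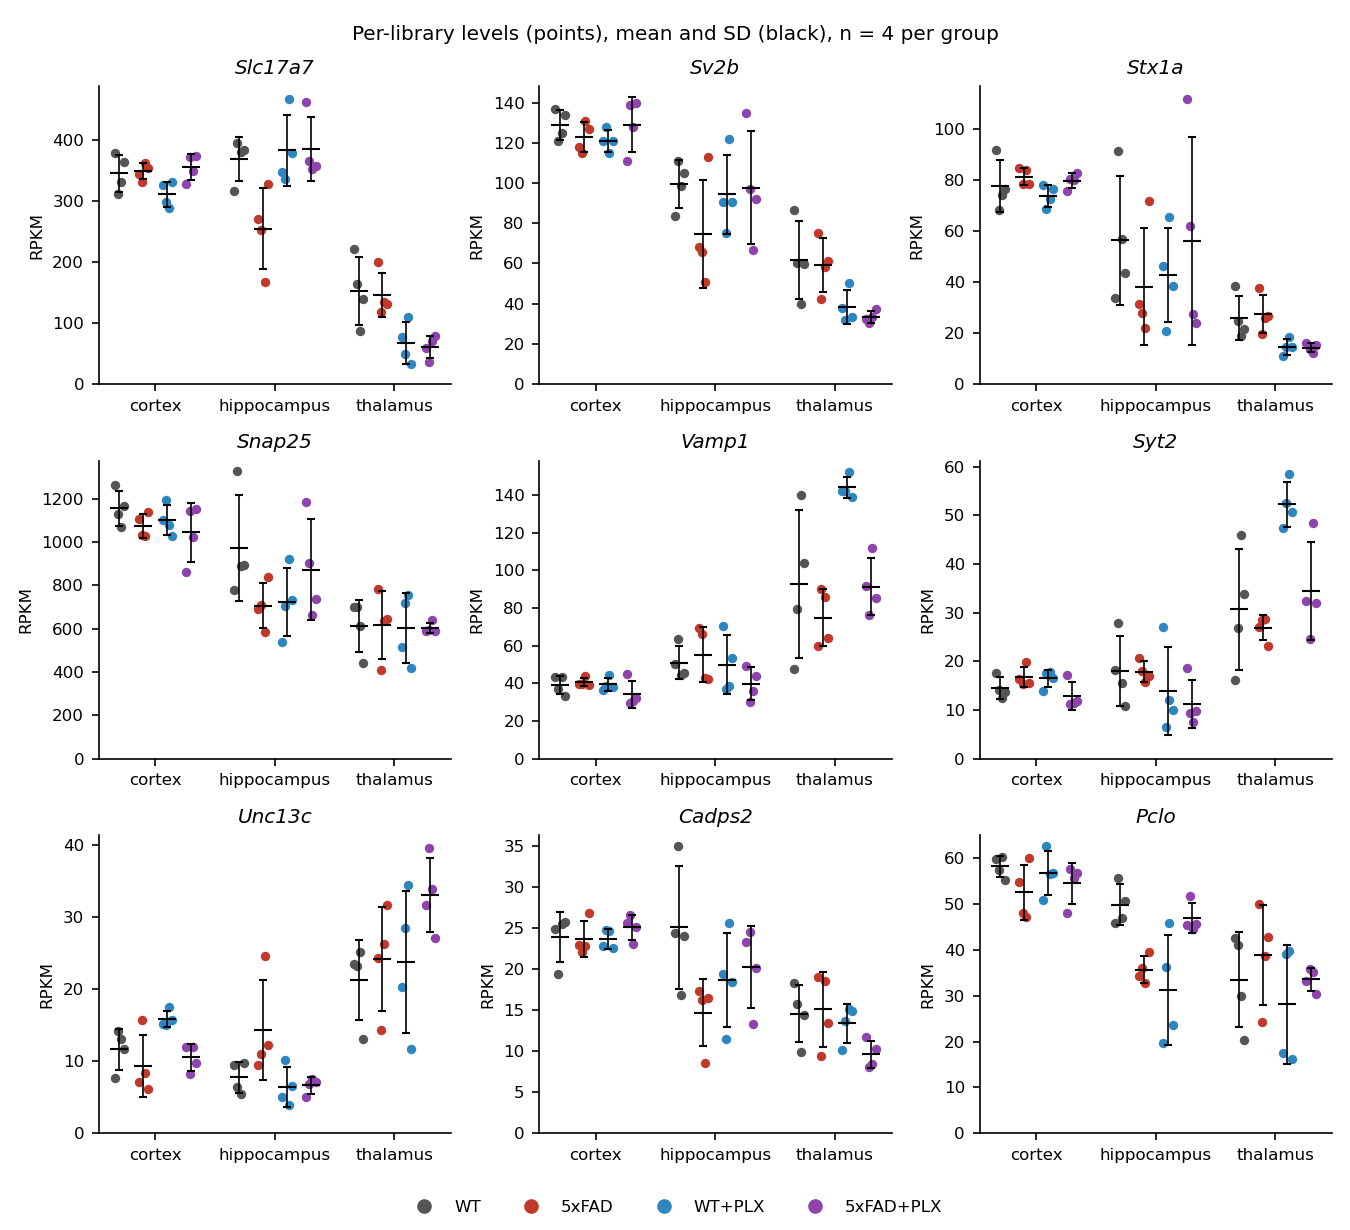
RPKM (vertical axis, linear, from 0) of 9 genes in each of the 48 libraries, by region and group, with points for libraries and black marks for the mean and SD of 4. Wild-type thalamic Slc17a7, Sv2b, Stx1a and Snap25 lie below cortex, Vamp1 lies above it, and 5xFAD hippocampus library 3 has the highest hippocampal Unc13c (24.5) and the lowest Cadps2 of its group (8.56).

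The shares that paralogs took of their family's summed RPKM differed between regions, given here as a description with no test. Vamp1 made up 8.34% ± 1.13 (SD, n = 4) of Vamp1 plus Vamp2 in Wild-type cortex, 10.9% ± 1.09 in hippocampus and 21.0% ± 8.08 in thalamus, where the libraries ran from 11.1% to 30.7%, with 18.2% ± 3.07 in 5xFAD, 32.1% ± 2.14 in PLX5622 and 23.0% ± 3.68 in 5xFAD + PLX5622 thalamus. Sv2b held 50.2% ± 1.60 of the Sv2 family in Wild-type cortex and 28.2% ± 7.66 in thalamus, with 17.7% ± 4.54 in PLX5622 and 17.0% ± 1.39 in 5xFAD + PLX5622 thalamus. Unc13c was 9.60% ± 2.58 of the Unc13 family in Wild-type hippocampus and 29.6% ± 5.97 in thalamus. Complexin followed the same order, Cplx1 being 42.3% ± 1.69 of the 3 complexins in Wild-type cortex, 57.6% ± 11.2 in Wild-type thalamus, 73.2% ± 6.70 in PLX5622 and 62.5% ± 4.23 in 5xFAD + PLX5622 thalamus. Syt2 held 2.30% ± 0.287 of the synaptotagmins in Wild-type cortex and 7.53% ± 3.59 in Wild-type thalamus, with 14.1% ± 0.494 in PLX5622 and 8.75% ± 2.66 in 5xFAD + PLX5622 thalamus.

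**Figure D3:**
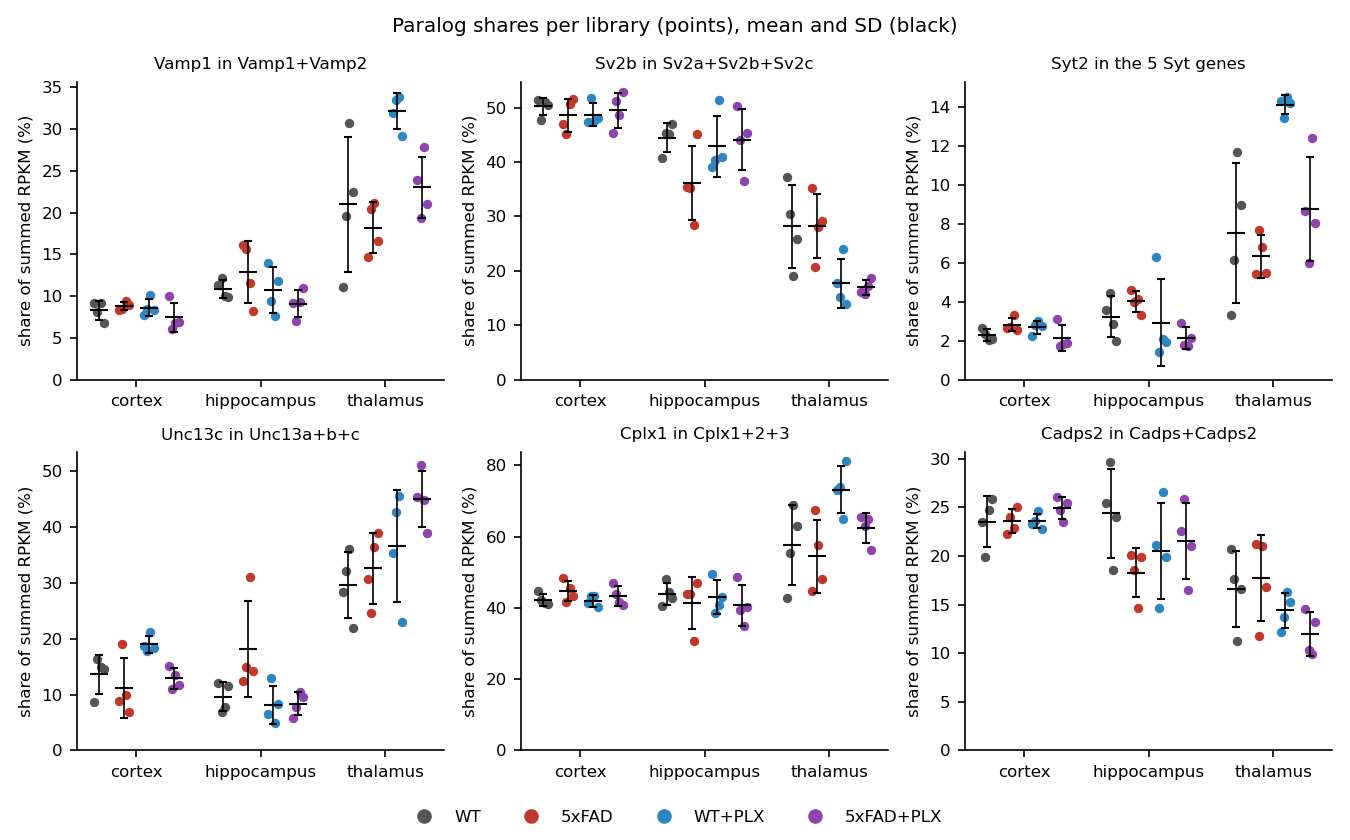
Share (percent, vertical axis) of Vamp1, Sv2b, Syt2, Unc13c, Cplx1 and Cadps2 in the summed RPKM of their own family, for each library (points) with the group mean and SD (black), by region and group. In thalamus the Vamp1 share runs from 11.1% to 30.7% in Wild-type and lies at 29.2% or above in all 4 PLX5622 libraries.

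Upstream sequence is shown for 4 genes that the regional differences turn on or that hold the motif searched. Slc17a7 and Stx1a were lower in thalamus and Vamp1 was higher there. Syn1 alone of the 35 genes matched to a RefSeq window held a full cyclic AMP response element. The sequences are RefSeq, build GRCm38.p6, on the gene's strand from 5′ to 3′, and end where the earliest annotated transcript begins, except for Slc17a7. Its window ends at 45163920, short of the annotated start at 45163949. Capitals mark the element, whose full form is TGACGTCA and whose core is TGACG, searched on both strands in the 250 bases before the RefSeq start.
Syn1 (chrX:20921005-20921168, minus strand): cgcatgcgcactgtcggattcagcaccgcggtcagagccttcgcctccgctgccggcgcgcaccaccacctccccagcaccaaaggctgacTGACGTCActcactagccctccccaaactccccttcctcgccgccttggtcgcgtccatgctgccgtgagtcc
Stx1a (chr5:135023232-135023481, plus strand): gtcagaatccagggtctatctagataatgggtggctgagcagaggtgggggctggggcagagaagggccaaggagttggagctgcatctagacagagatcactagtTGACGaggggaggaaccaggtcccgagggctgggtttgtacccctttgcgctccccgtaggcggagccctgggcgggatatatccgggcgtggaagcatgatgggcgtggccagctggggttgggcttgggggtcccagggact
Slc17a7 (chr7:45163671-45163920, plus strand): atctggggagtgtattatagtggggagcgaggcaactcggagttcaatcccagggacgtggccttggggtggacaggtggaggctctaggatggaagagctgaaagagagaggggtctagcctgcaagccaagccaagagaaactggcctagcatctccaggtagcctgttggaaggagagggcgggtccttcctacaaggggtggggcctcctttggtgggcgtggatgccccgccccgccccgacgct
Vamp1 (chr6:125215331-125215550, plus strand): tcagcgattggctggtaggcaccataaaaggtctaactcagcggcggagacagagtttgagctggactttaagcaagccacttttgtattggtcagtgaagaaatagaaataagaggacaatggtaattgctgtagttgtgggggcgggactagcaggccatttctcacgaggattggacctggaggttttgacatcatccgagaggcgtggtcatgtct
Counted back from the end of the printed sequence, the full element of Syn1 begins at position -73, and its core on both strands comes from this 1 palindrome. In Stx1a a core begins at -144 by the same count, and the Slc17a7 and Vamp1 windows hold none. Of the 35 genes matched to a RefSeq window, 1 held the full element (2.86%, against 1.77% of all 27025 symbols) and 8 held the core (22.9%, against 19.8%), namely Ppfia3, Rab3a, Rab3b, Stx1a, Syn1, Sypl, Syt2 and Unc13a. Both shares were near those of all promoters, and a match is not evidence of binding.

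Regional differences within the other 3 conditions are given side by side. In 5xFAD mice thalamus differed from cortex in 16 genes lower and 2 higher (all genes 6.10% lower, 5.91% higher), from hippocampus in 4 lower and 1 higher (3.04% and 2.45%), and hippocampus differed from cortex in 9 lower and 1 higher (2.27% and 3.09%). In PLX5622 mice the thalamic counts against cortex were 25 lower and 6 higher, 68.9% of the 45 (25.8% and 25.0% of all genes), against hippocampus 21 lower and 9 higher (14.2% and 13.7%), and for hippocampus against cortex 12 lower and 2 higher (17.9% of all genes in each direction). In 5xFAD + PLX5622 mice thalamus had 28 genes lower and 5 higher than cortex, 73.3% of the 45 (14.4% and 16.2% of all genes), and 23 lower and 8 higher than hippocampus (13.8% and 12.7%), while hippocampus had 1 lower and 1 higher than cortex (2.36% and 5.42%). These treated comparisons were adjusted each by itself and the untreated ones together. For Slc17a7 the thalamic minus cortical log2 levels were -1.25 in Wild-type, -1.28 in 5xFAD, -2.35 in PLX5622 and -2.60 in 5xFAD + PLX5622. Vamp1 was 1.14, 0.86, 1.86 and 1.41 higher in thalamus in the same order. The 5xFAD calls between hippocampus and cortex fell from 10 to 1 without 5xFAD hippocampus library 3, 6 without 5xFAD cortex library 1 and 16 without 5xFAD hippocampus library 4. The 5xFAD + PLX5622 calls between the same regions went from 2 to 11 without hippocampus library 1 and to 0 without library 3, and the 5xFAD calls between thalamus and hippocampus from 5 to 2 without hippocampus library 2 or thalamus library 3 and to 3 without hippocampus library 1 or 4 or thalamus library 4.

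The genotype comparison asks how these genes differed in mice with amyloid pathology at 7 months of age. In hippocampus 3 of the 45, all priming factors, were lower in 5xFAD than in Wild-type, and none passed in cortex or thalamus. The 3 were 6.67% of the set, beside 0.419% of all genes tested lower in hippocampus. Cadps, which primes dense-core vesicles, was at 69.3, 71.1, 50.1 and 66.5 RPKM in 5xFAD and 71.5, 82.8, 73.3 and 76.0 in Wild-type hippocampus (log2 difference -0.25, SE 0.07, limma adjusted p = 0.0311). Unc13b (Munc13-2) was at 10.2, 9.73, 6.97 and 9.11 against 12, 12.3, 11.7 and 11.5 RPKM (log2 difference -0.41, SE 0.12, limma adjusted p = 0.0350). For both genes the groups did not overlap. Cadps2 was at 17.4, 16.3, 8.56 and 16.5 against 24.4, 35.0, 16.8 and 24 RPKM, with 1 5xFAD library inside the Wild-type range (log2 difference -0.77, SE 0.23, limma adjusted p = 0.0403).

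Library 3 of 5xFAD hippocampus held the lowest value of all 3 genes and the highest striatal marker sum of the hippocampal libraries. Without it the differences were -0.14 for Cadps (limma adjusted p = 0.255), -0.29 for Unc13b (0.195) and -0.53 for Cadps2 (0.227), and none passed. With a striatal marker score added to a fit of the hippocampal libraries alone, chosen after seeing the data, the limma adjusted p-values were 0.454, 0.132 and 0.427. In the fit of those libraries without the score 1 gene passed, with adjustment over all 15 comparisons. The fit with the score was adjusted over the hippocampal comparisons alone, so these fits differ in more than the score. Calls were also lost without Wild-type hippocampus library 4 (0 left) or library 2 (1 left), and they numbered 8 without 5xFAD library 4 and 6 without 5xFAD library 1. With all libraries kept, 0 were left when this comparison was adjusted by itself, and 1 with rescaled libraries. Across the 45 genes 37 differences were below 0, with a median of -0.18 (all genes -0.01). At an unadjusted p below 0.05, 15 were lower (33.3%) and 2 higher (4.44%), while 5.77% of all genes were lower and 6.57% higher. The 2 higher were Sv2c (0.94), at 8.79, 7.14, 31.0 and 19.3 RPKM in 5xFAD hippocampus, and Unc13c (0.82), at 9.49, 11, 24.5 and 12.2. Both were highest in libraries 3 and 4, those with striatal transcripts, whose part in the result beyond the fits above was not tested. A length index was taken per library as the median log2 deviation from the regional mean of the tenth of genes with the most exon (9.8 kb or more) minus that of the tenth with the least (1.7 kb or less). This log2 level of long against short genes also moved with genotype, from -0.12 to 0.03 in 5xFAD hippocampus and from 0.05 to 0.14 in Wild-type, without overlap, and the 3 called genes have 15.1 (Cadps), 22.7 (Unc13b) and 9.6 kb (Cadps2) of exon. The sum of 10 astrocyte markers was 1154 to 1367 RPKM in 5xFAD and 1002 to 1139 in Wild-type hippocampus. Cortical projection neuron markers summed to 154, 267, 184 and 166 RPKM in Wild-type hippocampus and 134, 130, 84.8 and 193 in 5xFAD. The sum of 15 pan-neuronal genes was 1599 to 1842 in Wild-type and 1383 to 1584 in 5xFAD hippocampus, without overlap. The parts of transcript length, astrocyte RNA and neuronal mixture in these differences were not tested.

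No gene passed in cortex by limma or by voom on the recovered reads, none had an unadjusted p below 0.05, and 0.732% of all genes passed. The 2 smallest p-values in cortex belonged to Syt4, an unusual synaptotagmin of dense-core vesicles, at 59.2, 62.0, 62.0 and 68.6 RPKM in 5xFAD against 75.7, 68.8, 75.1 and 77.8 in Wild-type (-0.24, limma adjusted p = 0.550), and Unc13c, at 7.14, 15.7, 8.33 and 6.16 against 7.66, 14.2, 13.1 and 11.6 (-0.38, 0.635). In thalamus none passed by either tool, and 0.413% of all genes passed. At an unadjusted p below 0.05, 1 was lower (2.22%, against 0.638% of all genes). That gene was Nsf, at 214, 222, 207 and 199 RPKM in 5xFAD and 225, 226, 224 and 248 in Wild-type thalamus, without overlap (-0.13, limma adjusted p = 0.214). Next was Rab3b, a vesicle-bound small GTPase, at 12.4, 8.61, 10.6 and 11.3 against 12.4, 7.64, 6.02 and 9.14 (0.32, 0.488). No gene of the 45 passed a test of the difference of the 5xFAD effect between regions by limma or voom: 0% of all genes passed in each of the 3 tests. At an unadjusted p below 0.05, hippocampus against cortex had 2 higher and 2 lower (4.44% each, against 2.05% and 1.68% of all genes), thalamus against cortex 0, and thalamus against hippocampus 5 higher (11.1%, against 5.62%).

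**Figure D4:**
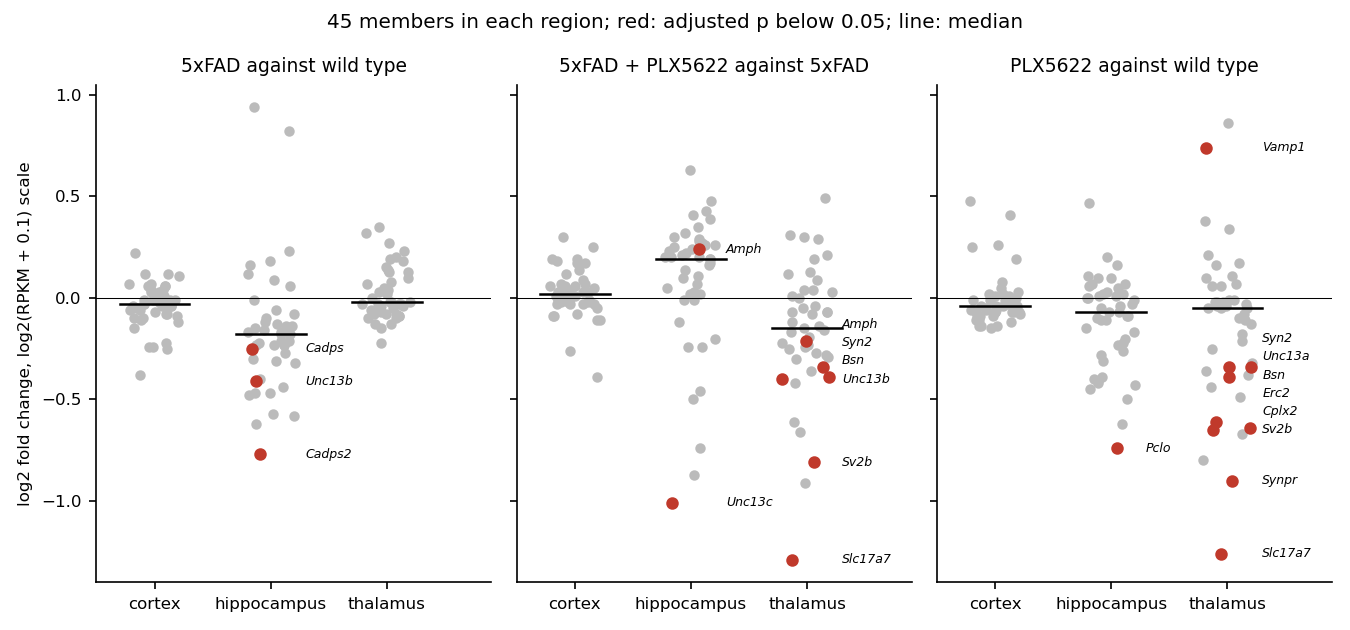
Log2 differences of the 45 genes (points) for 5xFAD against Wild-type, 5xFAD + PLX5622 against 5xFAD and PLX5622 against Wild-type in each region, on the log2(RPKM + 0.1) scale, with called genes in red and the median as a line. Cortical points lie close to 0, hippocampal points shift below 0 for genotype (median -0.18) and above 0 for PLX5622 in 5xFAD (median 0.19), and in thalamus Slc17a7 is the lowest point of both drug comparisons.

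Microglial depletion in 5xFAD mice was compared with 5xFAD mice on control chow, so these contrasts share the 5xFAD libraries with those above. In hippocampus 1 gene was higher (2.22% of the set, 0.689% of all genes) and 1 lower (2.27% of all genes). Amph, which recruits dynamin to endocytic pits, was at 70.3, 63.1, 67.0 and 67.8 RPKM with PLX5622 and 63.6, 58.6, 46.6 and 59.2 without, with 1 control value just inside the treated range (log2 difference 0.24, SE 0.06, limma adjusted p = 0.0184). Unc13c was at 4.96, 6.82, 7.55 and 7.16 against 9.49, 11, 24.5 and 12.2 RPKM, without overlap (log2 difference -1.01, SE 0.31, limma adjusted p = 0.0449). Wild-type values of Unc13c, 9.49, 6.38, 5.42 and 9.69, overlapped both.

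Both hippocampal calls were lost without 5xFAD library 3 (adjusted p = 0.161 for Amph and 0.228 for Unc13c) and with the striatal score (0.284 and 0.231, limma). The fit with the score used the hippocampal libraries alone and was adjusted over their comparisons only. In all, 34 differences were above 0, with a median of 0.19 (all genes 0.02). At an unadjusted p below 0.05, 15 genes were higher (33.3%, against 6.12% of all genes) and 4 lower (8.89%, against 6.87%). The largest of the 15 was Slc17a7 (0.63), at 463, 365, 353 and 358 RPKM with PLX5622 and 271, 253, 168 and 328 without, which do not overlap, though it missed the adjusted threshold. Cortical projection neuron markers summed to 246, 193, 127 and 135 RPKM with PLX5622 and 134, 130, 84.8 and 193 without, and their part was not tested. The calls numbered 6 without 5xFAD library 4, 4 without library 2 and 1 without treated library 1. Without the 2 treated libraries that held liver transcripts they also numbered 6.

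In thalamus of 5xFAD mice 6 genes were lower with PLX5622, 13.3% of the set beside 2.42% of all genes lower, and none was higher, also at an unadjusted p below 0.05 (limma). Slc17a7 was at 58.9, 36.4, 70.3 and 78.4 RPKM with PLX5622 and 200, 118, 135 and 132 without, a 2.44-fold lower level with no overlap (log2 difference -1.29, SE 0.25, limma adjusted p = 6.02e-04). Sv2b was at 32.3, 30.2, 33.5 and 37.5 against 75.4, 42.5, 58.3 and 61.3 RPKM (-0.81, SE 0.20, limma adjusted p = 0.00881). For both genes every treated library lay below every untreated one. Bsn (Bassoon) was at 38.7, 42.6, 44.7 and 47.0 against 61.7, 60.6, 50.2 and 54.6 RPKM (-0.39, limma adjusted p = 0.0274). Amph was at 47.1, 45.7, 49.9 and 49.3 against 57.9, 55.6, 56.8 and 52.0 (-0.21, 0.0467), a small shift in the opposite direction to its hippocampal one. Unc13b was at 5.51, 5.22, 6.40 and 6.07 against 9.51, 6.02, 8.50 and 7.11 (-0.40, 0.0393) and Syn2, a synapsin of the vesicle surface, at 60.4, 61.2, 68.7 and 75.2 against 90.3, 85.9, 85.8 and 73.7 (-0.34, 0.0419), each with overlapping groups.

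Cortical projection neuron markers summed to 112, 58.3, 67.0 and 89.9 RPKM in 5xFAD thalamus and 61.2, 60.8, 56.5 and 64.1 with PLX5622. The untreated value of 58.3 lay inside the treated range. Glial marker sums were higher with PLX5622, without overlap. Those of 10 astrocyte markers were 1305 to 1499 RPKM with the drug and 1138 to 1219 without. Those of 10 oligodendrocyte markers were 1697 to 2239 and 1254 to 1670. The part of the glial RNA was not tested. With a score of the cortical projection neuron markers in a fit of the thalamic libraries alone, chosen after seeing the data, none of the 6 passed. Slc17a7 was then at -0.71 (limma adjusted p = 0.330) and Sv2b at -0.50 (0.335). In that fit without the score 4 genes passed, and Slc17a7 (-1.29) missed the threshold with a limma adjusted p of 0.0535, since the spread came from thalamus alone. The fit with the score was adjusted over the thalamic comparisons alone and the fit without it over all 15, so these fits differ in more than the score. Calls numbered 2 without 5xFAD library 1, treated library 1 or treated library 2, and 3 without 5xFAD library 3, and Slc17a7 and Sv2b passed with any 1 library left out. In cortex none passed by limma or voom and none at an unadjusted p below 0.05, with 2.13% of all genes passing. The smallest p-values there were those of Syn2, at 93.6, 102, 95.9 and 98.3 RPKM with PLX5622 and 78.8, 85, 87.1 and 95.5 without (0.17, limma adjusted p = 0.433), and of Syngr3, a synaptogyrin, at 51.7, 55.9, 58.9 and 60.6 against 52.8, 56.5, 50.9 and 48 (0.12, 0.558).

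The drug was also given to wild-type mice. In PLX5622 thalamus 8 of the 45 genes were lower than in Wild-type thalamus and 1 was higher, 20.0% of the set, beside 3.30% of all genes lower and 0.545% higher. Slc17a7 was at 76.7, 49.5, 110 and 32.4 RPKM against 222, 164, 87.5 and 139 (log2 difference -1.26, SE 0.25, limma adjusted p = 8.28e-04), and Wild-type library 3 lay within the treated range. Cplx2, a complexin that clamps and promotes fusion, was at 105, 101, 147 and 73.1 against 246, 159, 119 and 146 RPKM (-0.64, 0.0154). Synpr, the synaptophysin relative synaptoporin, was at 9.93, 9.73, 16.9 and 9.67 against 35.5, 20.8, 12.8 and 20.3 (-0.90, 0.0179). In each of these 3 genes 1 or more libraries of the groups overlapped.

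Unc13a (Munc13-1), the main priming factor of forebrain synapses, was at 31.3, 31.4, 34.0 and 34.2 RPKM in PLX5622 thalamus and 50.6, 40.2, 37.0 and 39.2 in Wild-type (-0.34, limma adjusted p = 0.0248). Bsn was at 45.5, 40.7, 45.1 and 44.4 against 70.0, 52.8, 51.1 and 57.4 (-0.39, 0.0296). These are the 2 of the 9 genes whose groups did not overlap. Erc2, an active zone protein that binds RIM, was at 18.2, 23.3, 28.4 and 15.9 against 46.1, 39.2, 23.3 and 24.9 RPKM (-0.61, limma adjusted p = 0.0351), Syn2 at 67.8, 60.8, 72.3 and 74.2 against 100, 82.2, 70.5 and 97.8 (-0.34, 0.0415), and Sv2b at 37.8, 31.7, 50.4 and 33.5 against 86.8, 60.0, 39.8 and 59.9 (-0.65, 0.0424). Vamp1 was the higher gene, at 142, 142, 152 and 139 RPKM in PLX5622 thalamus against 47.5, 79.3, 140 and 104 (0.74, SE 0.22, limma adjusted p = 0.0364). The treated libraries were alike and the Wild-type ones spread from 47.5 to 140, reaching the treated range in library 3. The thalamic marker sums were 331, 342, 285 and 445 RPKM with PLX5622 and 112, 267, 428 and 320 without.

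Cortical projection neuron markers summed to 42.5, 53.7, 75.7 and 37.5 RPKM in PLX5622 thalamus and 106, 88.1, 61.0 and 55.9 in Wild-type. With their score in the fit of thalamus alone none of the 9 genes passed, against 2 without the score, and Slc17a7 was at -0.53 (limma adjusted p = 0.473, and 0.0603 in that fit without the score). Again the fits with and without the score were adjusted over different sets of comparisons. Without Wild-type library 1, which had the most cortical and striatal and the fewest thalamic transcripts, 1 call was left, and 3, 3 and 4 were left without PLX5622 library 1, 2 and 4. Slc17a7 passed with any 1 library left out. In hippocampus 1 gene was lower, beside 2.44% of all genes: Pclo was at 19.7, 36.3, 45.8 and 23.6 RPKM in PLX5622 and 45.9, 55.8, 47.0 and 50.8 in Wild-type, without overlap (-0.74, SE 0.23, limma adjusted p = 0.0485). Pclo (chr5:14514918-14863459, mm10, GENCODE) has 22.5 kb of exon, and the log2 level of long against short genes was lower in all 4 PLX5622 hippocampal libraries (-0.30, 0.00, -0.03 and -0.06) than in the 4 Wild-type ones (0.05 to 0.14), as Pclo was. The astrocyte marker sum did not overlap either, at 1153 to 1348 RPKM in PLX5622 and 1002 to 1139 in Wild-type hippocampus. Their parts in this difference were not tested. The call was lost without PLX5622 library 4 or Wild-type library 2, 3 or 4 and without PLX5622 library 1 (-0.55, limma adjusted p = 0.210). In cortex none passed by limma or voom and none at an unadjusted p below 0.05, with 1.38% of all genes passing. The smallest p-values were those of Unc13c (15.2, 15, 17.5 and 15.7 RPKM in PLX5622, 7.66, 14.2, 13.1 and 11.6 in Wild-type, 0.48, adjusted p = 0.493) and Unc13a (55.2, 56.8, 53.0 and 58.5 against 68.0, 59.8, 61.2 and 57.3, -0.14, 0.533).

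**Figure D5:**
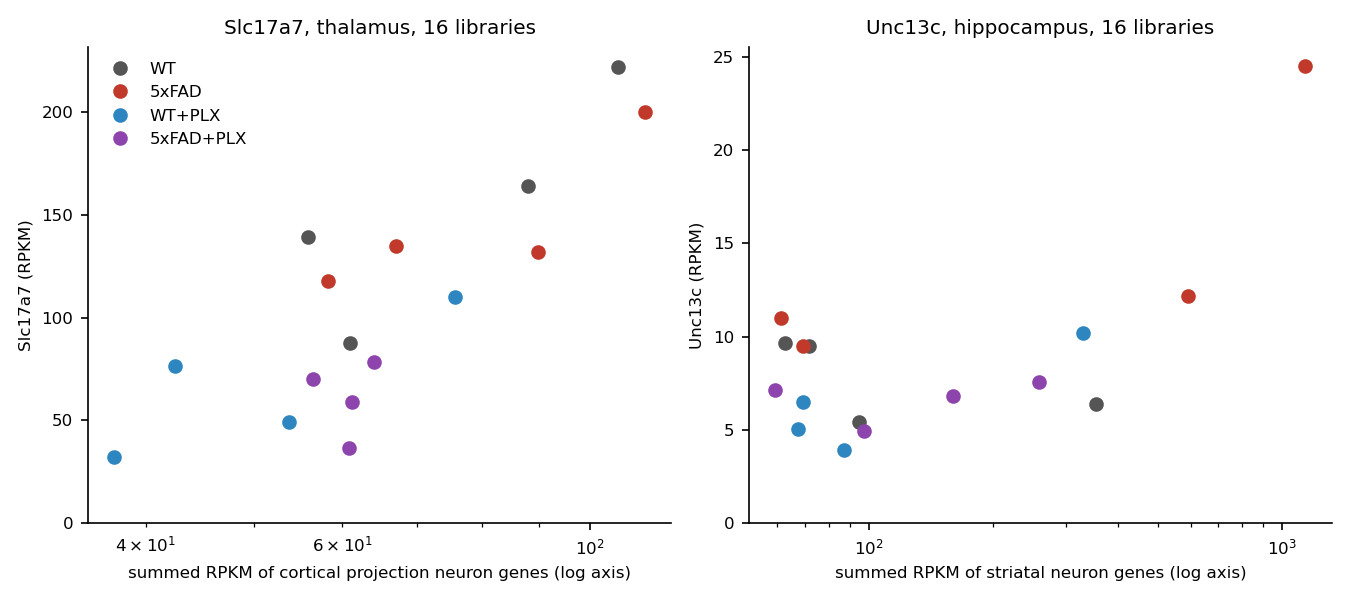
RPKM (vertical axis, linear) of Slc17a7 in the 16 thalamic libraries against the summed RPKM of cortical projection neuron markers, and of Unc13c in the 16 hippocampal libraries against that of striatal markers (log horizontal axes), with a colour for each group. The thalamic library with the lowest Slc17a7 (32.4) has the lowest cortical marker sum (37.5), and the hippocampal library with the highest Unc13c (24.5) has the highest striatal sum (1138).

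Treated 5xFAD mice were then set against Wild-type and against PLX5622. In thalamus 7 genes were lower in 5xFAD + PLX5622 than in Wild-type, 15.6% of the set beside 1.57% of all genes. Slc17a7 (-1.31, limma adjusted p = 5.96e-04) and Sv2b (-0.83, 0.0116) led, from the library values given above, followed by Syn2 (-0.39, 0.0310), Bsn (-0.41, 0.0405), Unc13b (-0.44, 0.0427), Amph (-0.24, 0.0433) and Nsf (-0.21, 0.0478). Nsf was at 186, 191, 217 and 206 RPKM in 5xFAD + PLX5622, below all 4 Wild-type libraries, and Amph at 47.1, 45.7, 49.9 and 49.3 against 59.6, 55.1, 52.5 and 59.5. The groups overlapped for Syn2 and not for the other 6. In the fit of thalamus alone 1 gene was called both with and without the cortical neuron score, and without the score the limma adjusted p of Slc17a7 was 0.139. Calls numbered 1 without Wild-type library 1 or treated library 2, 2 without treated library 1, 3 without Wild-type library 4 and 4 without Wild-type library 2 or treated library 4. In cortex no gene passed (limma and voom, none at an unadjusted p below 0.05, 1.06% of all genes), and in hippocampus none passed by either tool (0.983% of all genes did). There 2 were lower at an unadjusted p below 0.05 (4.44%, against 3.36% of all genes). Astrocyte sums were 1305 to 1499 RPKM in 5xFAD + PLX5622 and 1037 to 1179 in Wild-type thalamus, and their part in the thalamic calls was not tested. Against PLX5622 mice none of the 45 passed by limma or voom, while 0.0626% of all genes passed in cortex, 0.808% in hippocampus and 0.0376% in thalamus. At an unadjusted p below 0.05 there was none in cortex, 2 were higher in hippocampus (4.44%, against 7.84% of all genes), and 3 were higher (6.67%, against 7.49%) and 10 lower (22.2%, against 4.21%) in thalamus.

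Whether the drug acted alike in both genotypes was tested as the difference of the PLX5622 effects. No gene of the 45 passed in any region by limma or voom, beside 0% of all genes for cortex, 0.332% for hippocampus and 0.00626% for thalamus. In hippocampus 9 had a higher (20.0%, against 9.94% of all genes) and 1 a lower drug effect (2.22%, against 4.93%) in 5xFAD at an unadjusted p below 0.05, with a median difference of 0.21 (all genes 0.01). The smallest p there was that of Pclo (1.14, limma adjusted p = 0.0830), at 45.5, 51.7, 44.5 and 45.7 RPKM in 5xFAD + PLX5622 and 34.4, 36.1, 32.7 and 39.5 in 5xFAD, and lower with the drug in wild-type mice as given above. In cortex and thalamus 0 genes had an unadjusted p below 0.05. One gene passed in hippocampus without PLX5622 hippocampus library 3.

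Other genes of the terminal, fixed as a list of 70 of which 68 were in the table, were read beside the 45. In Wild-type thalamus 10 were higher and 13 lower than in cortex, among them the vesicular transporters for monoamines (Slc18a2, 3.86 on the log2 scale), acetylcholine (Slc18a3, 2.03) and glutamate (Slc17a6, VGLUT2, 1.97), and, lower, Lin7a (-1.97), a scaffold, Stxbp5l (-1.54), a tomosyn, and Cacna2d1 (-1.49), a calcium channel subunit. In that comparison 8.97% of all genes were higher and 9.28% lower. Against hippocampus 7 were higher and 10 lower (5.75% and 5.55% of all genes), and hippocampus against cortex had 5 higher and 2 lower (2.85% of all genes higher). The glutamate transporters thus ran in opposite directions, Slc17a7 lower and Slc17a6 higher in thalamus. Examples of genes that passed in the drug and treated 5xFAD comparisons follow, each with the share of all genes lower there. Rab3d, a relative of the Rab3 genes above, was lower with PLX5622 in 5xFAD thalamus (-0.59, beside 2.42%). Lin7a was lower in PLX5622 than Wild-type hippocampus (-1.63, beside 2.44%). Rimbp2, which links RIM to calcium channels, was lower in PLX5622 than Wild-type thalamus (-0.37, beside 3.30%). Ap2a2, an adaptor subunit, was lower in 5xFAD + PLX5622 than Wild-type thalamus (-0.28, beside 1.57%). Counts of the 68 are not given for these comparisons, so the list is not read as a set there.

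Neuronal genes outside the terminal were read in the same way. Of 15 pan-neuronal genes 2 were higher and 3 lower in Wild-type thalamus than cortex (median -0.03), and of 21 postsynaptic genes 0 and 14 (median -0.50, below the -0.32 of the 45). Of all genes tested 8.97% were higher and 9.28% lower. In PLX5622 against Wild-type thalamus the pan-neuronal genes had 2 higher and none lower (median 0.11) and the postsynaptic genes 8 lower (median -0.37), beside a median of -0.05 for the 45. There 0.545% of all genes were higher and 3.30% lower. In 5xFAD + PLX5622 against 5xFAD thalamus the medians were 0.06, -0.20 and -0.15, with 3 postsynaptic genes lower, beside 2.42% of all genes. In 5xFAD against Wild-type hippocampus neither list had a call by limma, with 1 pan-neuronal and 6 postsynaptic genes lower at an unadjusted p below 0.05, and the medians were -0.13 for pan-neuronal, -0.14 for postsynaptic and -0.18 for presynaptic genes. At that unadjusted threshold 5.77% of all genes were lower.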

How the data were processed

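Bulk RNA-seq of 48 libraries was used, assigned to 12 groups of 4 from the sample labels. The authors aligned reads to mm10 with STAR, counted them per gene with featureCounts, removed genes with low counts and computed edgeR normalization factors (calcNormFactors), and they deposited RPKM values for 16014 genes. The labels and the methods describe different library kits. Low RPKM values step in whole reads, and whole reads were recovered for 16014 of 16014 genes within 0.05 reads. Totals ran from 6.19 to 16.02 M reads per library (median 10.94 M). No column of the table was left unused.

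Values were analysed as log2(RPKM + 0.1), so that fold changes of low genes are understated. Genes with at least 0.2 RPKM in at least 4 libraries were tested (15975, with 39 left out). Group means over all 48 libraries were estimated together in limma 3.58.1 (R 4.3.3, lmFit, eBayes with trend), with Benjamini-Hochberg adjustment at 0.05 over 15 comparisons together (5xFAD against Wild-type, PLX5622 within each genotype, and regions within Wild-type and 5xFAD) and over each of 18 others by itself. The scripts were tested on simulated data. Exact permutation tests of 4 against 4 cannot go below p = 0.0286. Marker sums add RPKM over a list, and marker scores are mean log2 levels. The index of long against short genes compares the 10% of genes with the longest and the 10% with the shortest exon length (GENCODE, mm10, over 15219 genes).

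The members and lists were chosen with earlier results of these data known. Named with every library's value are members called in a genotype, drug or treated 5xFAD comparison, the 4 called members with the largest difference in each direction between Wild-type regions, and, where a genotype or drug comparison called none, the 2 with the smallest p. Hippocampal Slc17a7 with PLX5622, and the hippocampal Sv2c and Unc13c values in 5xFAD, were chosen after their values were seen. Promoter windows were RefSeq, GRCm38.p6, with 250 bases before the start, and 35 members matched by symbol. Some genes of the other lists are not reported here.

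Alternatives were pseudocounts of 0.01 and 1, rescaled libraries, no filter or one at a mean of 1 RPKM, and eBayes robust or without trend. Others were each comparison adjusted by itself, voom on recovered reads, only the regions compared, a dentate gyrus score and a block for the replicate number. Another block joined libraries of the same genotype, diet and number across regions, which the labels do not tie to single animals. Each library, or the 2 libraries with liver transcripts, was also left out. Added after seeing the data were the striatal and cortical neuron scores and the removal of the 2 5xFAD hippocampal libraries with striatal transcripts. Of the 15 comparisons, a fit with a marker score adjusted only those within its own region together.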

Additional observations from a re-analysis of the deposited data

Results flagged for a closer look

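In 4 of 80 groups tested, 1 library lay far from the other 3 of its group by Dixon's 95% criterion, and chance alone marks about 1 group in 20. Cadps2 was at 8.56 RPKM in 5xFAD hippocampus library 3, below 16.3 to 17.4 in the other libraries, and this is the library with the highest striatal marker sum of that region. Nsf was at 248 RPKM in Wild-type thalamus library 4, above the other 3 at 224 to 226. Synpr was at 16.9 RPKM in PLX5622 thalamus library 3, above 9.67 to 9.93, and that library also had the highest Slc17a7 (110) and cortical projection neuron sum (75.7) of its group. Unc13c was at 13.0 RPKM in Wild-type thalamus library 4, below 23.1 to 25.1. The causes were not tested.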

How the results depend on the processing

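Numbers of the 45 genes called were recomputed under each alternative. They stayed within 1.5 times the reported number in 636 recomputations and moved by more in 85. Of 874 recomputed differences of single called genes, 637 kept their call, 237 lost it and 0 reversed. The exceptions follow, as numbers of calls, and their causes were not tested except where fewer libraries or another spread entered by construction. For 5xFAD against Wild-type hippocampus (3) they were 1 with rescaled libraries, 0 with each comparison adjusted by itself, 1 with only the regions compared, 0 with the striatal score and 0 without the 2 5xFAD libraries with striatal transcripts. For 5xFAD + PLX5622 against 5xFAD hippocampus (2) they were 1 without trend, 1 adjusted by itself, 1 with voom, 1 with only the regions compared, 6 with the dentate gyrus score, 0 with the striatal score, 6 without the 2 libraries with liver transcripts and 0 without the 2 with striatal transcripts. For PLX5622 against Wild-type hippocampus (1) they were 0 with pseudocount 0.01, rescaled libraries, robust eBayes, no trend, own adjustment, and the dentate gyrus or striatal score. In thalamus, 5xFAD + PLX5622 against 5xFAD (6) had 3 adjusted by itself and 0 with the cortical neuron score, PLX5622 against Wild-type (9) had 2 with only the regions compared and 0 with the cortical neuron score, and 5xFAD + PLX5622 against Wild-type (7) had 3 with a mean RPKM of at least 1, 4 without trend, 1 with only the regions compared and 1 with the cortical neuron score. Between regions, Wild-type thalamus against cortex (19) had 29 adjusted by itself, and with only the regions compared Wild-type hippocampus against cortex (1) had 3, Wild-type thalamus against hippocampus (16) had 9 and 5xFAD thalamus against hippocampus (5) had 2. The 5xFAD hippocampus against cortex (10) had 6 without the 2 libraries with striatal transcripts, and 5xFAD + PLX5622 hippocampus against cortex (2) had 0 without the 2 with liver transcripts. The genotype difference of the hippocampal drug effect (0) had 1 with only the regions compared and 1 with the dentate gyrus score.

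With each library left out in turn the numbers ran from 0 to 8 for 5xFAD against Wild-type hippocampus, 0 to 6 for 5xFAD + PLX5622 against 5xFAD hippocampus, 2 to 6 for the same in thalamus, 0 to 2 for PLX5622 against Wild-type hippocampus, 1 to 12 for the same in thalamus, 1 to 7 for 5xFAD + PLX5622 against Wild-type thalamus, 0 to 1 for the hippocampal genotype difference, 12 to 24 for Wild-type thalamus against cortex, 0 to 3 for Wild-type hippocampus against cortex, 1 to 16 for 5xFAD hippocampus against cortex, 2 to 7 for 5xFAD thalamus against hippocampus and 0 to 11 for 5xFAD + PLX5622 hippocampus against cortex.

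The labels do not say whether the replicate numbers pair the libraries. Deviations from the group means correlated above 0.1 in 18 of 72 pairs of libraries with the same number in a region (-0.515 to 0.666) and in 9 of 48 across regions of 1 genotype and diet (-0.281 to 0.371). Pairs with unlike numbers were not computed, so these values cannot show whether the libraries are paired. With the number as a replicate block the calls for 5xFAD + PLX5622 against 5xFAD thalamus were 5 in place of 6, those for 5xFAD against Wild-type hippocampus stayed at 3, and no number of calls moved by over 1.5 times. Depth limits Cplx3 most, with a median of 88 reads.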
